A study of Mus musculus with 19 samples.

Results

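The Wnt ligands, their receptors and their antagonists were examined in the cornea and conjunctiva of female C57BL/6 mice (C57BL/6J by the study's methods) that ate ad libitum (AL) or were under calorie restriction (CR). Members were chosen by symbol from both expression tables, and the choice took in the *Wnt*, *Fzd*, *Dkk* and *Sfrp* genes together with *Lgr4* to *Lgr6*, *Lrp5*, *Lrp6*, *Axin1* and *Axin2*. The family numbered 44 of the 24552 genes listed for each tissue, namely 19 Wnt ligands, 10 Frizzled receptors, 2 co-receptors, 3 R-spondin receptors, 8 secreted antagonists and 2 axins. RNA came from 5 AL and 5 CR cornea libraries and from 4 AL and 5 CR conjunctiva libraries. The labels name no genetic change in any group, and the library titles of all 4 groups carry the tokens 6M and 50W, which the labels do not explain. By the study's methods the restricted mice were shifted to the smaller ration in adulthood, corneal epithelium was scraped off and conjunctiva was excised. The methods also describe more than 1 cohort of mice and the labels do not give the cohort of a library, so a part played by cohort was not tested. The methods and legends count the libraries of a group as mice, while the labels do not name the mouse of a library. One legend of the study gives the conjunctiva group sizes the other way round, and the labels were followed. Several tissues were taken from each mouse, so cornea and conjunctiva libraries may share mice.

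Wnt proteins are secreted, lipid-modified ligands that bind Frizzled receptors together with the co-receptors LRP5 or LRP6. In the canonical branch this stops a complex built on axin from degrading β-catenin, which then enters the nucleus and activates target genes with TCF and LEF factors. Dickkopf (DKK) proteins act on LRP5 and LRP6 or their partners, secreted Frizzled-related proteins (SFRP) bind Wnt ligands, and LGR4 to LGR6 are receptors for R-spondins, which raise the sensitivity of a cell to Wnt. On the ocular surface the pathway is known for its part in epithelial stem cell upkeep and in the choice between corneal and skin-like fates, for which *Dkk2* in the mouse is the classic example.

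Promoter sequence is shown for *Dkk2* and *Axin2*, an antagonist and a feedback inhibitor of the pathway for which AL and CR conjunctiva libraries did not overlap. Each run is the 250 bases before the start site in the RefSeq promoter table (build GRCm38.p6), written 5′ to 3′ on the strand of the gene, at chr3:132085042-132085291 on the plus strand for *Dkk2* and at chr11:108920099-108920348 on the plus strand for *Axin2*. Capitals mark CTTTG, the core that TCF and LEF factors are known to bind, searched on both strands. The RefSeq gene record of *Axin2* begins further upstream, at position 108917828, so its window lies inside that record, and the record of *Dkk2* begins at 132085266, near the end of its window.
Dkk2: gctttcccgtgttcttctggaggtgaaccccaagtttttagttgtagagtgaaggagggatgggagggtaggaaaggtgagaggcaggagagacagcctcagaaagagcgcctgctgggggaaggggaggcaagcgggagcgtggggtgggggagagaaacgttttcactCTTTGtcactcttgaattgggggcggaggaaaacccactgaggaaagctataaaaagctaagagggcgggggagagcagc
Axin2: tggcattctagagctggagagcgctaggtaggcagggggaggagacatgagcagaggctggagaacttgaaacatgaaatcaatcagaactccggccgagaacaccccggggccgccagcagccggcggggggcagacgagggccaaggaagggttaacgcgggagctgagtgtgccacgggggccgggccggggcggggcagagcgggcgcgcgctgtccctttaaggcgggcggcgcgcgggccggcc
The *Dkk2* window held 1 match to the core and the *Axin2* window held 0. CTTTG was present in 48.6% of the 32851 promoter windows of this length, and in those of 11 of the 28 members the table holds. The longer forms CTTTGAA and CTTTGAT, which contain the core, were in 4.46% and 3.21% of all windows and in 1 and 2 of the 28 members. The *Axin2* window had a GC content of 69.2% with 24 CpG dinucleotides, against 55.6% and 7 for *Dkk2*. A match is a description of these letters only.

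Members were given as normalized counts, that is reads per gene divided by the size factor the authors computed for the library, and a member was tested where its mean over the libraries of a tissue was at least 10. By that filter 27 members were tested in the cornea (10 ligands, 9 Frizzled receptors, 2 co-receptors, *Lgr4*, 3 antagonists and 2 axins) and 32 in the conjunctiva (11 ligands, 9 Frizzled receptors, 2 co-receptors, 2 R-spondin receptors, 6 antagonists and 2 axins). Of the 17 not tested in the cornea, *Dkk1*, *Fzd9*, *Wnt2b*, *Wnt8a* and *Wnt9b* had 0 reads in all libraries. Of the 12 not tested in the conjunctiva, *Dkk1*, *Dkk4*, *Wnt3*, *Wnt7a*, *Wnt8a* and *Wnt9b* had 0 reads in all libraries. A count of 0 allows up to 3 reads, or 2.27 to 3.30 normalized counts in cornea libraries and 2.41 to 3.37 in those of the conjunctiva. These limits cover counting error only.

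Among the ligands, *Wnt4* had the highest level in both tissues. Per kb of exon, its level was 90.2 RPM in the cornea, with a range of 73.8 to 103.8 over libraries, and 65.9 in conjunctiva, with a range of 55.4 to 72.5, where RPM is the reads of a gene scaled to a common total of counted reads. No library of the ligand next in order reached these ranges. In the cornea *Wnt7b*, a ligand of many epithelia, followed at 18.6 and *Wnt10a*, a ligand required for hair, tooth and sweat gland development, at 18.3, and the ranges of these neighbours overlapped. In the conjunctiva *Wnt10a* followed at 16.2, then *Wnt2*, a ligand of mesenchymal cells in several organs, at 7.82 and *Wnt7b* at 7.32, again with overlapping ranges. The means of *Wnt9a* and *Wnt6* lay below these per kb in both tissues. Because the labels and the methods name library kits of different types, division by exon length may not fit these libraries, so orders were also read without it. *Wnt4* remained the highest ligand in both tissues on RPM alone.

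The receptors differed in their order between tissues. In the cornea *Fzd6*, a Frizzled known for the alignment of hairs in the skin, led with 23.5 RPM per kb (range 17.7 to 29.8), and its libraries did not overlap those of *Fzd2* at 6.06. In the conjunctiva *Fzd2* led with 17.3 (range 11.8 to 23.4), ahead of *Fzd6* at 8.24 (range 7.09 to 9.42). On RPM alone *Fzd6* also led in the cornea at 113, without overlap with *Fzd5* at 36.5, while in the conjunctiva *Fzd2* at 63.4 overlapped *Fzd3* at 46.1, with *Fzd6* next at 39.7. *Fzd8* had the lowest mean of the conjunctiva receptors tested on both scales, and in the cornea the lowest was *Fzd3* per kb (0.565) and *Fzd8* on RPM (5.58), each overlapping its neighbour. Of the R-spondin receptors, *Lgr4* was above *Lgr5* throughout, and *Lgr6* did not reach the filter in either tissue.

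Among the antagonists *Sfrp1* had the highest mean level, 82.7 RPM per kb in the cornea against 54.8 in the conjunctiva. *Dkk3*, a divergent Dickkopf that is not known to block LRP6 as the others do, was next at 55.4 and 16.9. The ranges of *Sfrp1* and *Dkk3* overlapped in the cornea per kb, but not on RPM alone. *Dkk2* was at 0.712 and 12.2 in these tissues.

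The tissues were set side by side as RPM, with no test, because the tables were scaled separately. Of the 33 members tested in either tissue, 13 were higher in all conjunctiva libraries than in any cornea library, 5 were higher in all cornea libraries, and 15 overlapped. The share of all genes that split in this way was not computed, so the split is not shown to be particular to the family. The 13 included *Dkk2*, with 45.1 RPM in the conjunctiva and 2.64 in the cornea, *Fzd3* with 46.1 and 7.23, *Axin2* with 22.2 and 2.93, and *Lgr5* with 4.99 and 0.737. *Sfrp4*, *Sfrp2* and *Wnt2b* belonged to the same group, and *Sfrp4* was at 6.21 against 0.0301. The 5 higher in the cornea were *Wnt4* (378 against 276), *Wnt7b* (91.0 against 35.9), *Fzd6* (113 against 39.7), *Fzd5* (36.5 against 19.9) and *Dkk3* (186 against 56.7). *Wnt3a*, a canonical ligand, was at 3.19 against 0.278, with overlapping libraries. Cell make-up differed between the tissues, since summed fibroblast markers were 2115 to 3934 normalized counts in cornea libraries and 30030 to 68563 in those of the conjunctiva. In bulk tissue fewer cells of a type and less RNA per cell cannot be told apart.

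**Figure D1:**
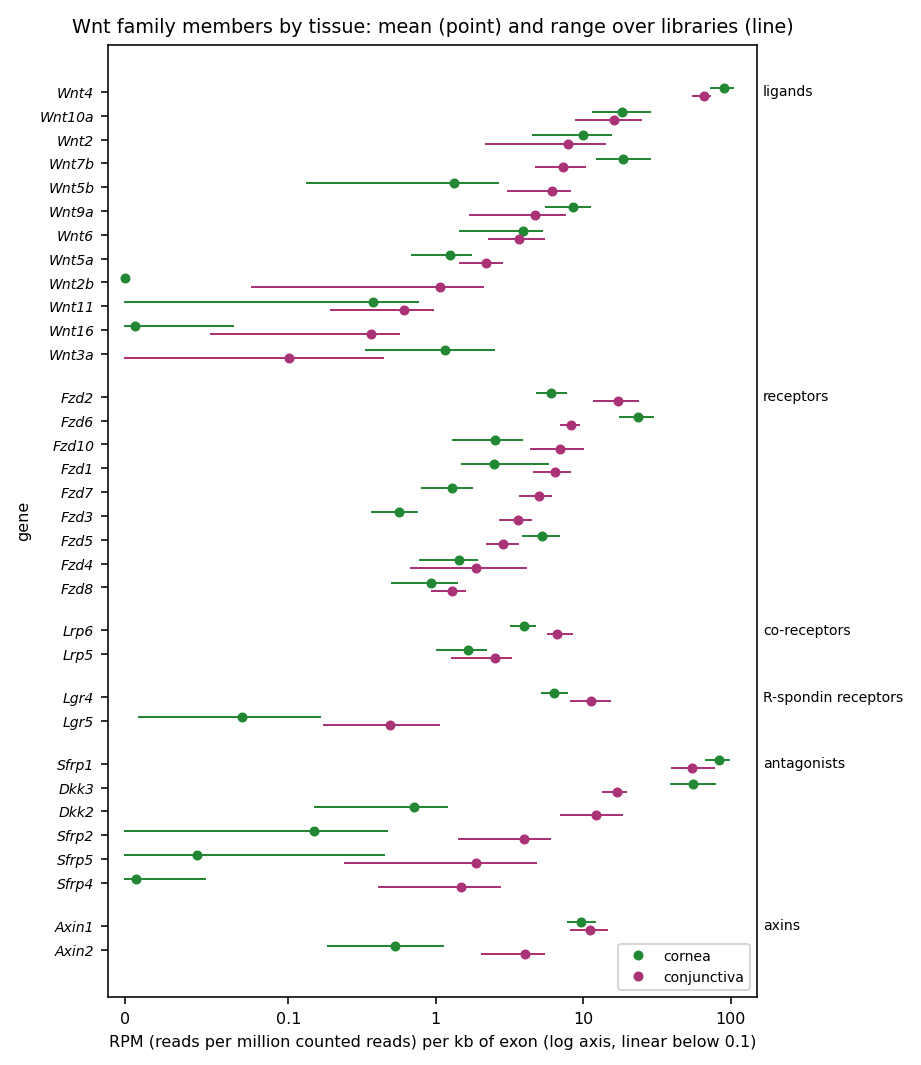
Levels of the 33 members tested in either tissue, grouped by role, in RPM per kb of exon on an axis that is logarithmic above 0.1 and linear below it. Points are means and lines span the lowest to the highest library of the cornea (green, 10 libraries) and the conjunctiva (purple, 9 libraries). *Wnt4*, *Sfrp1* and *Dkk3* stand at the right of the cornea values, and *Dkk2*, *Fzd3* and *Axin2* show conjunctiva ranges wholly to the right of the cornea ranges.

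Whether CR altered the family in the cornea was asked with limma on log2(normalized count + 1), and a gene was called at an adjusted p under 0.05 (Benjamini-Hochberg over all genes tested) with a fold change above 1.5. By this rule 0 of 27 members were called, against 1.22% of all 12278 genes tested. At an unadjusted p under 0.05 there were 6 members, 4 higher and 2 lower in CR, which was 22.2% of the members against 18.1% of all genes tested (8.52% higher and 9.55% lower). With voom weights on the recovered reads the counts were also 0 and 6. Shares of all genes are given for the main limma fit only, so counts under other fits have no background here. The median log2 change of the tested members was 0.08, against -0.03 for all genes. Of the 27 members, 14 were higher in CR, or 51.9% against 46.9% of all genes.

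*Wnt7b* had 889, 796, 826, 976 and 709 normalized counts in the AL cornea libraries and 1023, 1566, 1555, 1194 and 947 in the CR libraries. The CR values lay above the AL values except for the lowest CR library, which fell between the AL values. The means were 839 ± 100.4 and 1257 ± 291 (SD, n = 5 each), a log2 difference of 0.56 ± 0.15 (SE) with an adjusted p of 0.0616 by limma. *Wnt7b* passed the threshold without AL 4 (adjusted p 0.0232), CR 1 (0.0277) or CR 7 (0.0194) in limma, and with array weights (0.00262), and its adjusted p was 0.00262 to 0.261 over all alternatives.

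*Fzd6* had 1106, 1084, 962, 1232 and 1225 normalized counts in AL and 1341, 1663, 1502, 1635 and 1313 in CR. In the cornea it was the 1 member with no overlap of AL and CR libraries, or 3.70% of the members tested against 3.97% of all genes (2.08% with CR higher). Its means of 1121 ± 112 and 1491 ± 162 gave a log2 difference of 0.41 ± 0.11 (limma adjusted p 0.0708). The adjusted p of *Fzd6* passed with array weights (0.00939) and without AL 4 (0.0305), CR 1 (0.0452) or CR 7 (0.0497) in limma. Over all alternatives its adjusted p was 0.00939 to 0.264 and its log2 difference 0.34 to 0.49. That difference stayed under the fold threshold throughout, so *Fzd6* was not called under any of them. The exons of 7 members, *Fzd6*, *Wnt7b*, *Wnt11*, *Fzd5*, *Axin2*, *Sfrp2* and *Wnt5a*, overlap those of another annotated gene, and since no source used here says whether counting took strand into account, their values are uncertain to that extent.

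*Wnt9a*, a ligand known from joint development, had 265, 288, 327, 215 and 295 normalized counts in AL and 375, 429, 409, 406 and 251 in CR. *Wnt3a* had 11.0, 29.5, 34.9, 30.1 and 16.5 in AL and 38.3, 55.6, 76.5, 39.9 and 33.4 in CR. For *Wnt9a* all CR libraries but CR 7, and for *Wnt3a* all but CR 7, were above every AL library. The log2 differences were 0.41 ± 0.17 for *Wnt9a* (limma adjusted p 0.208) and 1.02 ± 0.42 for *Wnt3a* (0.209).

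*Fzd4*, the receptor for norrin in retinal vessels as well as for Wnt ligands, had 147, 142, 120.1, 149 and 126 normalized counts in AL and 69.0, 130.0, 58.3, 93.0 and 75.2 in CR. All CR libraries but CR 2 were below every AL library, and the log2 difference was -0.73 ± 0.23 (limma adjusted p 0.121). *Wnt11*, a ligand of the β-catenin-independent branch, had 23.1, 33.9, 25.1, 36.3 and 12.4 in AL and 8.76, 18.8, 7.58, 14.3 and 0 in CR. The log2 difference of *Wnt11* was -1.75 ± 0.78 (limma adjusted p 0.246), and it was -1.02 without CR 7, the library at 0. The diets overlapped at these low counts.

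The remaining 21 members of the cornea that were tested had log2 differences from -0.83 (*Wnt5b*) to 0.89 (*Axin2*). *Axin2* had 15.4, 12.02, 28.4, 26.5 and 35.0 normalized counts in AL and 55.9, 31.1, 28.0, 33.7 and 73.4 in CR, with an unadjusted p of 0.0541 and an adjusted p of 0.285 by limma. *Lgr5*, a marker of stem cells in several epithelia, was below the filter, with 3.54 to 19.8 normalized counts in AL and 1.02 to 5.48 in CR. All of these CR values were at or near the level that 3 reads give. Genes at 0 made up 40.5% ± 2.70 of all genes in AL and 44.4% ± 3.06 in CR cornea libraries (SD, n = 5 each). The part of this difference in the values of low members was not tested. Summed macrophage markers were 344 to 501 normalized counts in AL and 259 to 333 in CR. Of the 6 of 10 macrophage genes tested in the cornea, 6 were lower in CR and 1 was called. The fibroblast sum was 2467 to 3698 in AL and 2115 to 3934 in CR. The 7 listed lacrimal gland markers summed to 30154 to 53615 in AL and 23368 to 36184 in CR. All 3 tested genes of that list were lower, 2 of them called, with a median log2 change of -1.78. The list includes *Aqp5*, and in conjunctiva libraries it summed to only 1318 to 1661 in AL and 1943 to 2681 in CR. Which gene made up the cornea sum was not examined, so the sum does not show gland tissue in the scrapes. All 5 tested conjunctival epithelium markers were higher in CR, 2 of them at an unadjusted p under 0.05. CR 7 held the highest conjunctival epithelium sum of the cornea (81481, against 39226 to 56883 in the other libraries) and the lowest corneal epithelium sum (483030, against 574522 to 704071). The part of these markers in the values of the members was not tested.

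In the conjunctiva 0 of 32 members were called, against 0.359% of all 13929 genes tested. By voom on the recovered reads 1 member was called, *Dkk2* (adjusted p 0.04996). Here and below, the share of all genes by voom is not given, so counts by voom cannot be set against it. At an unadjusted p under 0.05 limma gave 6 members, 1 higher and 5 lower in CR, which was 18.8% of the members against 9.40% of all genes tested (4.53% higher and 4.87% lower), and voom gave 7. The AL and CR libraries of 4 members did not overlap, with *Wnt2*, *Dkk2* and *Axin2* lower and *Wnt7b* higher in CR. This was 12.5% of the members against 3.87% of all genes (1.92% with CR higher and 1.95% with CR lower). The median log2 change was -0.06 for the members and -0.02 for all genes. Of the 32 members, 14 were higher in CR, or 43.8% against 48.0% of all genes.

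*Wnt2* had 273, 319, 369 and 271 normalized counts in the AL conjunctiva libraries and 163, 90.4, 185, 172 and 66.5 in the CR libraries. Every CR library was below every AL library. The means were 308 ± 46.3 (SD, n = 4) and 135 ± 53.3 (SD, n = 5), a log2 difference of -1.27 ± 0.29 (SE) with an adjusted p of 0.0766 by limma. *Wnt2* passed the threshold without CR 3 (limma adjusted p 0.0258) and with array weights (0.0152), and its adjusted p was 0.0152 to 0.262 over all alternatives.

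*Dkk2*, the antagonist whose promoter is printed above, had 693, 704, 614 and 808 normalized counts in AL and 332, 365, 467, 591 and 356 in CR. The highest CR library, CR 4, was just under the lowest AL library. The log2 difference was -0.77 ± 0.18 (limma adjusted p 0.0889), with means of 705 ± 79.4 and 422 ± 108. *Dkk2* passed the threshold without CR 4 (limma adjusted p 0.0307) and with array weights (0.0188), and its adjusted p was 0.0188 to 0.354 over all alternatives.

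*Axin2*, a direct target of β-catenin in most tissues and for that reason a common readout of the canonical branch, had 310.3, 296, 346 and 354 normalized counts in AL and 229.9, 243, 229, 265 and 153 in CR. The diets did not overlap, and the log2 difference was -0.56 ± 0.19 (limma adjusted p 0.291). The R-spondin receptor *Lgr5* had 69.1, 62.8, 126 and 75.4 in AL and 21.4, 78.0, 46.3, 29.7 and 32.1 in CR, where only CR 2 reached the AL values. The log2 difference of *Lgr5* was -1.07 ± 0.40 (limma adjusted p 0.364). The receptor *Fzd10* had 281, 341, 260.3 and 384 in AL and 298, 204, 262, 233 and 195 in CR, with overlapping diets and a log2 difference of -0.41 ± 0.19 (limma adjusted p 0.519).

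*Wnt7b* was the 1 member higher in CR among the 6 with an unadjusted p under 0.05. It had 363, 343, 275 and 364 normalized counts in AL and 592, 625.3, 451, 442 and 511 in CR, so that every CR library was above every AL library. The means were 336 ± 41.8 and 524 ± 82.5, and the log2 difference was 0.63 ± 0.16 (limma adjusted p 0.135). With array weights the adjusted p was 0.0306, and over all alternatives it was 0.0306 to 0.389. The other 26 members tested in the conjunctiva had log2 differences from -1.17 (*Wnt2b*) to 0.94 (*Sfrp5*), with an unadjusted p above 0.05 for each.

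**Figure D2:**
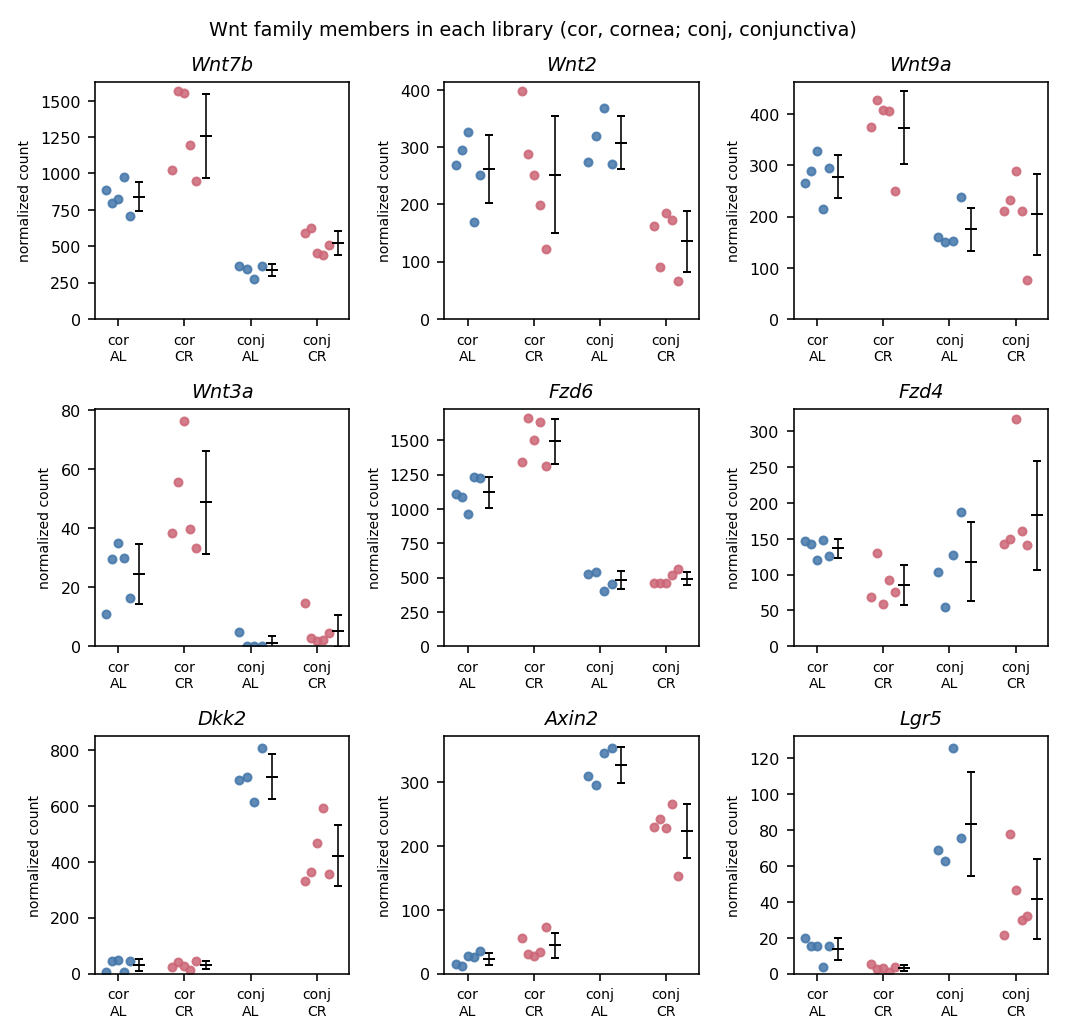
Normalized counts of 9 members in each library of the cornea (cor) and conjunctiva (conj), for AL (blue) and CR (red). Each point is a library, the bars are the mean and SD of the group, and each axis starts at 0. *Wnt7b* has a higher mean in CR in both tissues, with overlapping diets in the cornea. *Wnt2*, *Dkk2* and *Axin2* are lower in every CR than in any AL conjunctiva library. No member passed the adjusted test in the main limma fit. *Dkk2* was called with voom in the conjunctiva, and *Wnt7b*, *Wnt2* and *Dkk2* were called under some other settings. *Fzd6* in the cornea passed the adjusted test under some settings, but its change stayed under the fold threshold, so it was not called.

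The lower members of the CR conjunctiva moved beside markers of some stromal cells, while other such markers did not fall. The list of 14 fibroblast markers, collagen genes among them, was chosen with earlier results of these data known. The study had already reported collagen formation as its top lowered pathway in CR conjunctiva, so the list is not independent of that result. All 14 markers were lower in CR, with a median log2 change of -0.67. Of these, 2 were called and 12 had an unadjusted p under 0.05 by limma. Their summed level was 67437, 45720, 61707 and 68563 normalized counts in the AL libraries and 33968, 33914, 48645, 57852 and 30030 in the CR libraries. Within CR, the library with the highest sum, CR 4, had the highest *Dkk2* and *Axin2* but not the highest *Wnt2*, which was in CR 3, and the library with the lowest sum, CR 5, had the lowest *Wnt2* and *Axin2* but not the lowest *Dkk2*, which was in CR 1. The AL library with the lowest sum, AL 3, was below CR 3 and CR 4 in the markers and above both in *Wnt2*, *Dkk2* and *Axin2*. All 10 macrophage markers were lower as well, with sums of 4135 to 4827 in AL and 2572 to 3862 in CR, as were 9 of 9 endothelial markers. None of these passed the test, though 5 of the macrophage markers had an unadjusted p under 0.05 by limma. Of the keratocyte markers 3 of 4 were lower (median log2 change -1.08), but their sums overlapped, at 1997 to 3157 in AL and 2234 to 3493 in CR. The keratocyte list shares *Lum* with the fibroblast list. Of the smooth muscle and pericyte markers 4 of 5 were lower (median log2 change -0.08). By contrast 0 of 5 tested fat cell markers and 0 of 8 skeletal muscle markers were lower in CR. Their median log2 changes were 1.68 and 0.55. Summed corneal epithelium markers were 100191 to 119043 in AL and 95704 to 147896 in CR conjunctiva. The part of these cell types in the values of *Wnt2*, *Dkk2*, *Axin2* and *Lgr5* was not tested. CR 5 also held meibomian gland markers at a sum of 24767, against 630 to 1524 in the other conjunctiva libraries. Without CR 5 the log2 differences were -1.05 for *Wnt2* (limma adjusted p 0.0577), -0.71 for *Dkk2* (0.122), -0.43 for *Axin2* (0.384) and 0.64 for *Wnt7b* (0.149).

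**Figure D3:**
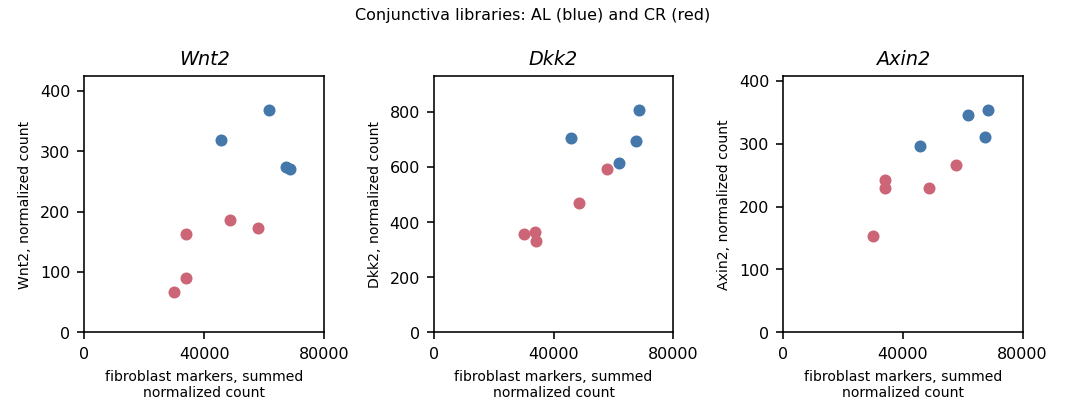
*Wnt2*, *Dkk2* and *Axin2* (normalized count, vertical axes) against the summed normalized count of 14 fibroblast markers (horizontal axes) in the 9 conjunctiva libraries, AL in blue and CR in red. The CR libraries reach from 30030 to 57852 and the AL libraries from 45720 to 68563 on the marker axis, and the members are lower in every CR library than in any AL library.

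To ask whether CR acted differently on the tissues, the log2 differences were subtracted (conjunctiva minus cornea) for the 26 members tested in both. The test took the tissues as independent although libraries may share mice. The difference passed an adjusted p under 0.05 for 0 of 26 members, against 0.0168% of 11929 genes, and voom also gave 0. At an unadjusted p under 0.05 there were 3 members by limma, or 11.5% against 7.48% of all genes, and 4 by voom. *Fzd4* was lower in CR in the cornea and had 103, 55.0, 127 and 187 normalized counts in AL and 143, 149, 318, 161 and 142 in CR conjunctiva, which gave a difference of 1.41 ± 0.41 (limma adjusted p 0.363). Its lowest conjunctiva library, AL 3, also held the lowest sums of skeletal muscle (21989) and fat cell markers (107). Its highest, CR 3, held the highest of both (208405 and 1598). The part of these cell types in the *Fzd4* values was not tested. *Axin2* had a difference of -1.46 ± 0.47 (adjusted p 0.419 by limma), with a higher mean in CR cornea and lower values in CR conjunctiva. The diets overlapped for *Axin2* in the cornea. Its highest cornea value (73.4) was in CR 7, the cornea library with the highest conjunctival epithelium sum (81481), and the part of this was not tested. *Wnt2* had a difference of -1.15 ± 0.39 (adjusted p 0.447 by limma), with a cornea log2 difference of -0.13. *Wnt7b* differed between tissues by 0.07 ± 0.22 (adjusted p 0.950 by limma), which does not show that the tissues acted alike. Signs were opposite in 8 of the 26 members, and the share of all genes with opposite signs was not computed. With the tissues subtracted within each shared title number, 0 members passed and 3 had an unadjusted p under 0.05, and the *Axin2* difference was -0.92 (limma adjusted p 0.848).

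**Figure D4:**
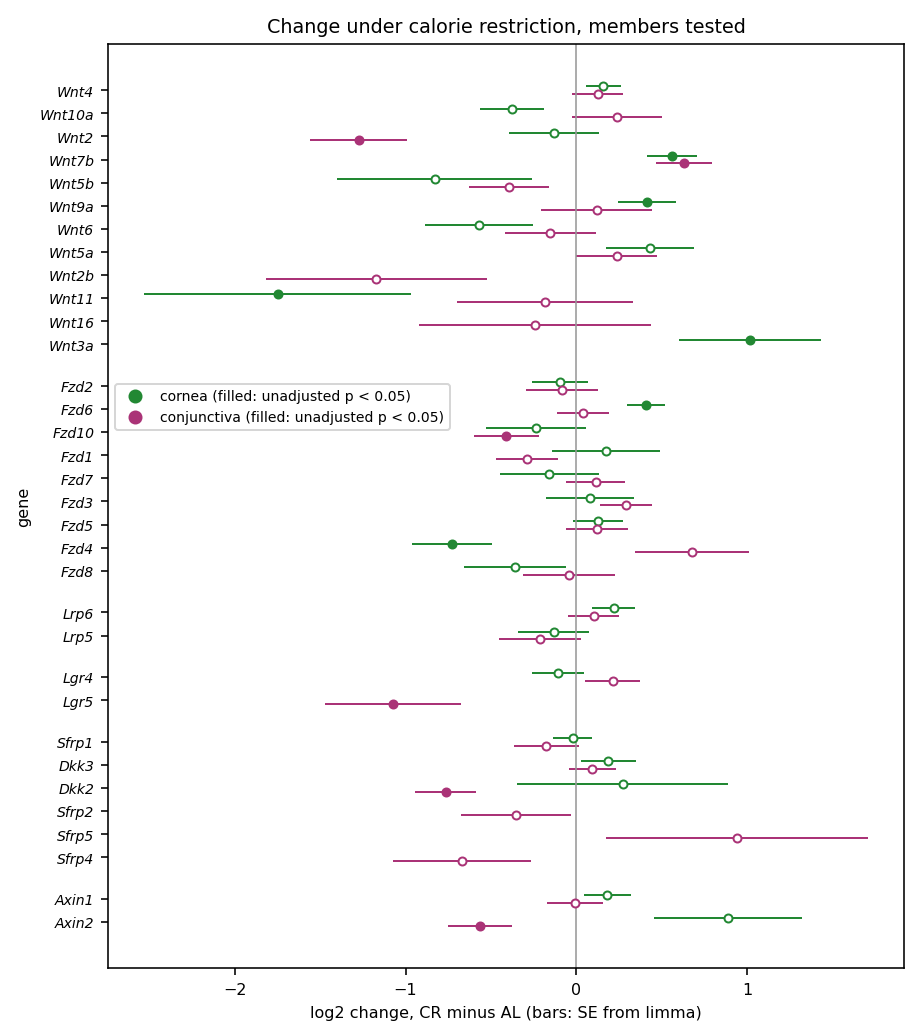
Log2 change (CR minus AL, horizontal axis) with its SE for the members tested in the cornea (green, 27 members) and the conjunctiva (purple, 32 members), grouped by role. Filled points had an unadjusted p under 0.05, which held for 6 members in each tissue, and *Wnt7b* is the member filled in both.

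Other genes of the pathway were taken from 5 lists that cover signal transduction, ligand secretion and cofactors, further antagonists, the β-catenin-independent branch and known β-catenin targets. These lists were chosen with earlier results of these data known, so their shares are not independent of those results. Of their 95 genes, 63 were tested in the cornea and 81 in the conjunctiva. In the cornea 2 were called, both higher in CR, which was 3.17% of those tested against 1.22% of all genes (0.749% with CR higher). At an unadjusted p under 0.05 there were 8 higher and 2 lower, or 15.9% against 18.1% of all genes. The called genes were *Ccnd1*, which encodes cyclin D1 and is listed as a target though many other signals act on it, and *Ptk7*, a receptor-like protein of planar polarity. *Ccnd1* had 7400 to 9116 normalized counts in AL and 12743 to 17678 in CR, a log2 change of 0.86 ± 0.11 (limma adjusted p 2.5e-04), and it rose without overlap between the diets. *Ptk7* had 50.5 to 172 in AL and 165 to 377 in CR, a log2 change of 1.38 ± 0.30 (limma adjusted p 0.0332). The *Ptk7* call was lost without any one of AL 1, AL 2, AL 3, AL 5, CR 2 or CR 3, with adjusted p-values up to 0.106, and with a covariate for the share of genes at 0 the log2 change was 0.82 (0.211). Its adjusted p was 0.00192 to 0.211 over all alternatives.

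The next genes of the cornea lists by p-value did not pass the test. They were *Csnk1e*, a kinase of the pathway, with 1646 ± 192 and 2307 ± 504 normalized counts, *Kremen1*, a Dickkopf receptor, with 269 ± 24.8 and 377 ± 64.6, *Myc*, a listed target, with 45.3 ± 29.2 and 96.9 ± 40.2, and *Bcl9l*, a β-catenin co-activator, with 2789 ± 441 and 3726 ± 837 (mean ± SD in AL and CR, n = 5 each). Their limma adjusted p-values were 0.0954 to 0.161.

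In the conjunctiva 0 of 81 of these genes were called by limma or by voom, against 0.359% of all genes by limma. At an unadjusted p under 0.05 limma gave 8 higher and 2 lower, or 12.3% against 9.40% of all genes, and voom gave 11 in all. The diets did not overlap for 4 of the 81 genes, or 4.94% against 3.87% of all genes, namely *Ccnd1*, *Tcf7l2* and *Amer1* with CR higher and *Adgra2* with CR lower. *Ccnd1* had 5690 to 7869 normalized counts in AL and 8244 to 13274 in CR, without overlap, and a log2 difference of 0.66 ± 0.16 (limma adjusted p 0.112). *Tcf7l2*, a TCF factor, had 1367 to 1435 in AL and 1445 to 2114 in CR, and *Amer1*, a scaffold of the degradation complex, had 347 to 422 and 459 to 619, both without overlap. Their log2 differences were 0.36 ± 0.14 and 0.41 ± 0.15 (limma adjusted p 0.389 and 0.349). *Bcl9l* and *Vangl1*, a planar polarity protein, were higher in CR by 0.50 and 0.55 on the log2 scale, and *Bambi*, a listed target, had a log2 difference of -0.58, with limma adjusted p-values of 0.243, 0.244 and 0.388.

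Counted reads were 10354125 to 14681223 per cornea library and 10726717 to 14433441 per conjunctiva library. The tissue labels were checked against their markers. *Krt12*, the corneal keratin, was 179846 to 340965 normalized counts in cornea libraries and 436 to 5139 in conjunctiva libraries. *Muc5ac*, the goblet cell mucin, was at 2328 to 6593 and 0 to 43.3.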

How the data were processed

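The tables hold gene expression from RNA sequencing of 19 libraries. The authors trimmed reads with cutadapt, aligned them with STAR, counted them per gene with HTSeq and scaled them with DESeq2; versions are not given in the sources used here. The methods name the build mm10 and the processing notes GRCm39. The deposited values are log2 of size-factor-scaled counts plus 1, scaled by the authors within each tissue. They were turned back into normalized counts and whole reads (100% came out whole, within 0.01), and 5 repeated symbols were left out. Members and lists were chosen with earlier results of these data known. AL and CR were compared within each tissue with limma 3.58.1 (intensity trend, robust, statmod 1.5.0, R 4.3.3) on log2(normalized count + 1) where the mean reached at least 10. The pseudocount of 1 can make changes of low genes look smaller than they are. A library at or near 0 can instead enlarge the change on this scale, as for *Wnt11* in the cornea. Members with an unadjusted p under 0.05 were named with all values, as were other pathway genes that were called or had up to the 6 smallest such p-values. *Axin2*, *Lgr5* and *Fzd4* were also given in the second tissue after their values were seen. Differences between tissues, taken as independent, used the summed squared errors with Satterthwaite degrees of freedom. The script was tested on simulated data. Lengths and exon overlaps came from GENCODE M21 (GRCm38). Alternatives were other pseudocounts, filters and scalings, array weights, voom on the recovered reads, a covariate for genes at 0, a replicate block and leaving out each library.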

Additional observations from a re-analysis of the deposited data

Results flagged for a closer look

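Single libraries stood apart from their group for 11 of the 118 sets of values examined (a tissue and diet for each member tested), where chance alone flags about 1 in 20. Each had a gap to its nearest neighbour that was large for the range of the group by Dixon's 95% limit. The sets share libraries and are not independent. The share flagged over all genes was not computed, so the count is not shown to be particular to the family. Cornea CR 7 stood apart for *Fzd1*, with 288 normalized counts against 78.9 to 107 in the other libraries, for *Wnt9a*, with 251 against 375 to 429, and for *Wnt11*, with 0 against 7.58 to 18.8. CR 7 also held the highest conjunctival epithelium sum of the cornea libraries (81481). Without CR 7 the *Wnt9a* log2 difference was 0.55 (limma adjusted p 0.0674). Conjunctiva CR 5, the library with meibomian gland markers, stood apart for *Axin2*, with 153 against 229 to 265, and for *Wnt9a*, with 76.5 against 210.4 to 290. Conjunctiva AL 3 stood apart for *Fzd2*, with 522 against 880 to 907, and for *Wnt10a*, with 707 against 337 to 381. Conjunctiva AL 5 had 9.08 for *Wnt16* against 21.7 to 24.7, and 238 for *Wnt9a* against 150 to 160. *Fzd4* was 318 in conjunctiva CR 3 against 142 to 161, and *Wnt5a* was 137 in conjunctiva CR 1 against 238 to 253. Of the conjunctiva libraries, AL 3 held the lowest skeletal muscle marker sum (21989) and CR 3 the highest (208405).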

How the results depend on the processing

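Of 555 values of 27 named results recomputed under the alternatives, 532 kept their direction and their side of the threshold, 15 gained the call, 8 lost it and 0 changed sign. The count of called members was 1 with array weights in the cornea (*Wnt7b*), and in the conjunctiva 3 with array weights (*Dkk2*, *Wnt2*, *Wnt7b*) and 1 with voom (*Dkk2*). The share of all genes called under each alternative is not given, so these counts have no background. Leaving out a library gave 0 to 1 called members in the cornea (*Wnt7b*) and 0 to 1 in the conjunctiva (*Wnt2* or *Dkk2*). The other pathway genes called in the cornea were 1 with the replicate block and 1 with a covariate for genes at 0 (*Ccnd1* in both), and 1 to 4 when a library was left out, the 4 being *Ccnd1*, *Myc*, *Nkd2* and *Ptk7* without AL 4. In the conjunctiva they were 1 with array weights (*Ccnd1*) and 0 to 3 when a library was left out, the 3 being *Bcl9l*, *Ccnd1* and *Vangl1* without CR 3. The cause was not tested. Differences between tissues passed for 0 members under each alternative run. Replicate numbers gave no clear pairing of the libraries, though 4 pairs per tissue are too few to decide it. Deviations of AL and CR libraries with the same number correlated at -0.30 to 0.29 (cornea) and -0.06 to 0.05 (conjunctiva). Of such pairs, 1 of 4 and 0 of 4 correlated best with their own number. With the number as a block, 0 members were called in each tissue, and *Ptk7* in the cornea was no longer called (limma adjusted p 0.145).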
